A study of Mus musculus with 45 samples.

Results

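The 39 genes described here encode basement membrane and extracellular matrix proteins of the mouse: laminin chains, collagens, basement membrane linkers and proteoglycans, fibronectin and the matricellular proteins. They were taken from a list of names and not by level, but the list was made with earlier results of these data known. They are 39 of the 54838 genes counted. All 39 were found in the table by their Ensembl identifiers. Expression was measured by RNA-seq of polyA RNA in cultured PyMT+ cell lines from the MMTV-PyMT model, in which the MMTV promoter drives polyomavirus middle T antigen in the mammary epithelium, on the FVB/N background. Of the 15 lines, YEJH and YEJG are the parental lines, labelled as primary mammary gland tumour. Cells of these were transplanted into the mammary fat pad, and lines were then made from the fat-pad tumours (YEJH-FP1 to YEJH-FP5 and YEJG-FP) and from the lung micrometastases that formed after the tumour was resected (YEJH-M1 to YEJH-M5, YEJG-M1 and YEJG-M2). The groups are therefore 1 parental, 5 fat-pad and 5 lung lines of YEJH, and 1 parental, 1 fat-pad and 2 lung lines of YEJG. All lines carry the PyMT transgene, and none was given a treatment. YEJH-M3 is labelled as lung metastases and the other lung lines as whole lung, but all are cultured lines. Ages of the animals, and which line came from which animal, are not given in the sources used here. Each line is 1 culture measured as 3 technical repeats, so that p-values compare lines and the spread includes any difference between the animals and cultures.

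The basement membrane is a thin sheet on which epithelial cells rest. Laminins are trimers of an alpha, a beta and a gamma chain that join into a first network at the cell surface, type IV collagen trimers form a second network, and nidogens, perlecan (Hspg2), agrin (Agrn) and type XVIII collagen link or decorate both. Beyond this sheet lies the interstitial matrix of fibrillar collagens, type VI collagen, fibrillin and fibronectin, which in the mammary gland is made mainly by stromal fibroblasts, and matricellular proteins such as tenascin-C (Tnc), thrombospondins, Sparc and periostin (Postn) modify how cells attach to it.

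Promoter sequence is shown for 4 members, chosen because in lines of YEJG origin Tnc and Lamb3, a chain of laminin-332, moved one way and Sparc and Col5a1 the other. Each run is the 250 bases upstream of the most upstream listed start, 5′ to 3′, from RefSeq on GRCm38.p6, with none of the transcript included. The windows are chr4:64047016-64047265 (minus strand) for Tnc, chr1:193301744-193301993 (plus strand) for Lamb3, chr11:55420081-55420330 (minus strand) for Sparc and chr2:27886175-27886424 (plus strand) for Col5a1. Capitals mark matches to 4 short motifs searched on both strands, namely the AP-1 site TGANTCA, the E-box CAGGTG, the GC box GGGCGG and the TATA box TATAAA.
Tnc: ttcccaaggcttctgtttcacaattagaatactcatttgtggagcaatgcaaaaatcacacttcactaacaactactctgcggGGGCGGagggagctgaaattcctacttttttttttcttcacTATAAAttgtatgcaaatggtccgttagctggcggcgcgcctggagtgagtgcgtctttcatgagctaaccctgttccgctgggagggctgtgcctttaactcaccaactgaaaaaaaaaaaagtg
Lamb3: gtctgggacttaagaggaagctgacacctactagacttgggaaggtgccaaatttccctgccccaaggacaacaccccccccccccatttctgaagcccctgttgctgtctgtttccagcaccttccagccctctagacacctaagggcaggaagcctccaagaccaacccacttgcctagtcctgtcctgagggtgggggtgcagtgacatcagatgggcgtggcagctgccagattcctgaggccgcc
Sparc: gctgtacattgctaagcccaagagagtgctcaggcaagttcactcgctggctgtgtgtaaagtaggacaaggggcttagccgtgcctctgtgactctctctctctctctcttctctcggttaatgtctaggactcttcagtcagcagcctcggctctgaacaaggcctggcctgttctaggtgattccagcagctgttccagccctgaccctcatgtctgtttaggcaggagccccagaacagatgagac
Col5a1: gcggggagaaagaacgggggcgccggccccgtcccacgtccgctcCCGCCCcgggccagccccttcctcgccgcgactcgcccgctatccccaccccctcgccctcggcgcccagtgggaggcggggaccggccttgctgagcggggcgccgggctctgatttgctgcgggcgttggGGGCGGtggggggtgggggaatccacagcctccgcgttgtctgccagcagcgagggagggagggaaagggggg
The Tnc window held 1 GC box and 1 TATA box, the Col5a1 window held 2 GC boxes, and the letters of none of the 4 motifs were in the Lamb3 or Sparc window. G and C made up 44.8% of the Tnc window, 58.8% of that of Lamb3, 54.0% of that of Sparc and 76.4% of that of Col5a1. Over the 27025 promoters of this length in the table, 6.85% held the AP-1 letters, 17.1% the E-box, 33% the GC box and 13% the TATA box. Of the 27 members with a window, 1 held the AP-1 letters (Col6a1), 2 the E-box (Col4a4 and Lama5), 15 the GC box and 4 the TATA box (Col17a1, Col3a1, Thbs2 and Tnc). The matches describe letters only.

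Reads counted on genes ranged from 9723860 to 16943900 per library, with a median of 13944899. Levels are CPM (counts per 1000000 reads on genes) scaled by TMM factors, given as the mean of the 3 libraries of a line. Among the 20 members with a median of at least 10 CPM, the median coefficient of variation between technical repeats ran from 3.16% to 14.8%. The 3 libraries of YEJG-M1, 1 of which carries another line's name in its library name, gave Tnc levels of 148, 121 and 137 CPM and Lamb3 levels of 60.1, 56.1 and 57.1 CPM, and leaving that library out changed the member count of none of the comparisons of both origins. The prefix of the library names splits the libraries into a group A and a group B, and both hold every line. What the prefix stands for is not given in the sources used here. The epithelial label was checked on 7 luminal markers, whose summed level was 2870 to 7653 CPM in every line. Markers of leukocytes, endothelium, lung epithelium and adipocytes each summed to at most 2.82 CPM in any line.

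The members ranged from 0 reads in all libraries of a line up to 4554 CPM for Thbs1 in parental YEJH (plot of all members by line). Together they took 0.715% to 1.34% of the counts of a line. By median level over the 15 lines, 15 members lay above 100 CPM, 5 between 10 and 100, 4 between 1 and 10, 9 between 0.1 and 1, and 6 below 0.1. The 6 lowest were Lama1, Lama2, Nid1, Nid2, Postn and Col3a1. Both nidogens, the linkers between the laminin and type IV collagen networks, reached at most 0.0277 (Nid1) and 0.0499 CPM (Nid2) in any line. Lama1 and Lama2, the alpha chains of early embryonic and of muscle basement membranes, reached at most 0.0277 and 0.0752 CPM, and Postn at most 0.139. Lama1, Lama2, Nid1, Nid2 and Postn passed the filter on low counts in no comparison and are not described further.

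**Figure D1:**
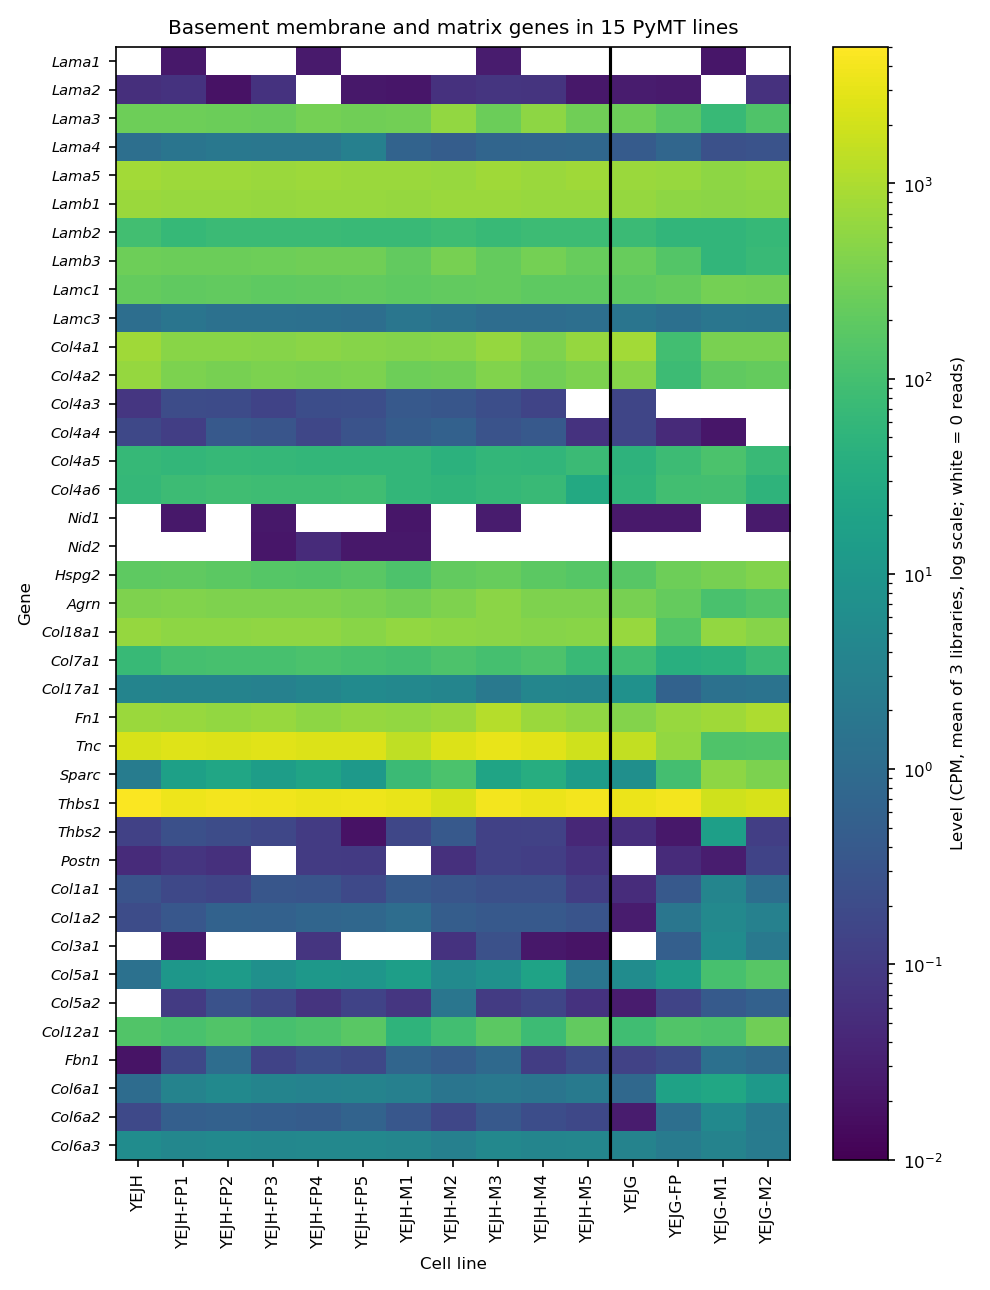
Level of each of the 39 genes (rows) in each of the 15 lines (columns), in CPM on a log colour scale; white marks 0 reads in all 3 libraries and the black line separates YEJH lines from YEJG lines. Laminin chains other than Lama1, Lama2, Lama4 and Lamc3 and the genes Col4a1 and Col4a2 are bright in most lines, while the rows of Nid1, Nid2, Col1a1, Col1a2 and Col3a1 are dark or white in most.

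Per kilobase of exon, the highest median levels were those of Thbs1 (thrombospondin-1) at 561 CPM per kb, Tnc at 308, Col18a1 at 74.9 and Col4a1 at 62.7. Within the laminins on this per-length scale, Lama5 (61.3) and Lamb1 (60.9) lay close together and above Lamb3 (32.3), Lama3 (21.8), Lamc1 (18.4) and Lamb2 (12.5). Type IV collagen was mostly Col4a1 and Col4a2, which encode the chains of the trimer common to most basement membranes, with Col4a5 and Col4a6 at 6.45 and 9.09 CPM per kb and Col4a3 and Col4a4, chains known from kidney, at 0.0159 and 0.0151. The most even members across lines were Lamb1, Lama5, Lamb2, Lamc3 and Lamc1, whose highest line was 1.38 to 1.67 times the lowest. Sparc and Col5a1 differed most among members above 10 CPM, with the highest line 219 and 124 times the lowest.

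Lines from lung micrometastases were first compared with lines from fat-pad tumours as unpaired groups, since which line came from which animal is not given. Origin was not a term here, and 2 of the 7 lung lines and 1 of the 6 fat-pad lines were of YEJG origin. Over the 7 lung and 6 fat-pad lines, 30 of the 39 members passed the filter on low counts and none passed an adjusted p of 0.05 in edgeR's quasi-likelihood test, where 0% of 15056 genes did. At an unadjusted p under 0.05 there were 5 members (Lama4, Col4a6, Sparc, Col1a1 and Col5a1) of 30, against 5.21% of all genes. The median log2 difference (lung over fat pad) was 0.10 over the 30 members and 0.01 over all genes. DESeq2 called 1 of 30 members, against 0.146% of all genes, and limma on separate libraries 2 of 28, against 0.584%. Log2 differences are given ± SE from the fit.

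Fibronectin (Fn1), the main adhesive glycoprotein of provisional matrix, stood at 531, 635 and 675 CPM (lowest, median and highest) in fat-pad lines and at 553, 697 and 1179.7 in lung lines. The groups overlapped, and the highest lung value was that of YEJH-M3. The difference was 0.31 ± 0.15 on the log2 scale, with a 95% interval of -0.02 to 0.64 and an adjusted p of 0.909. Lama5 and Lamb1, chains of laminin-511, had narrow intervals of -0.24 to 0.09 and -0.20 to 0.15 on the log2 scale. Col4a1 and Col4a2 differed by 0.14 ± 0.31 and -0.11 ± 0.29, and the sign turned for Col4a1 without YEJG-FP (-0.07) and for Col4a2 with origin as a covariate (0.12). The intervals of Lamb3 (-1.08 to 0.49), Lamc1 (-0.12 to 0.44) and Hspg2 (-0.25 to 0.85) also held 0. Sparc had the highest log2 difference among members above 10 CPM, chosen after its values were seen, at 2.41 ± 0.89 with an adjusted p of 0.909. Its levels were 11.5, 19.2 and 102 CPM in fat-pad lines and 13.8, 78.1 and 540.2 in lung lines (lowest, median and highest), so that the groups overlapped. The highest line of each site was of YEJG origin, and within YEJH the difference of Sparc was 1.61.

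Within YEJH, with 5 lines of each site, Lama4 was the one member that passed of 29 tested, against 0.0467% of 14990 genes. Lama4, the laminin alpha chain best known from blood vessel and fat basement membranes, had levels of 1.62, 1.88, 1.83, 1.82 and 2.98 CPM in YEJH-FP1 to YEJH-FP5 and 0.640, 0.480, 0.726, 0.747 and 0.805 CPM in YEJH-M1 to YEJH-M5. Every lung line lay below every fat-pad line, and all 10 levels were low. Lama4 fell by 1.57 on the log2 scale (SE 0.19, adjusted p = 0.0190), that is 2.97-fold lower. The adjusted p rose to 0.0744 without YEJH-FP2, 0.0713 without YEJH-M2 and 0.0577 without YEJH-M3, and was 0.185 in group A alone and 0.0495 in group B alone.

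Other members of YEJH lines did not pass, and some are given because their lines separated or spread widely, chosen after their values were seen. At an unadjusted p under 0.05, there were 6 members of 29, where 7.55% of all genes did. Col6a1, a chain of the beaded filament collagen, was at 3.58, 5.08, 3.65, 3.33 and 3.54 CPM in fat-pad lines and at 3.05, 1.61, 1.90, 1.66 and 2.23 in lung lines. Every lung line lay below every fat-pad line, with a log2 difference of -0.92 ± 0.19 and an adjusted p of 0.154. Col6a2, its partner chain, differed by -1.06 ± 0.26 (adjusted p = 0.212). Col4a6 was at 79.6 to 88.7 CPM in the fat-pad lines and 29.3 to 72.5 in the lung lines, also without overlap. Its log2 difference was -0.64 ± 0.18 (adjusted p = 0.335). Sparc, a collagen-binding matricellular protein, was at 17.4, 23.8, 14.6, 21 and 11.5 CPM in the fat-pad lines and 78.1, 124, 21.1, 34.9 and 13.8 in the lung lines. YEJH-M1 and YEJH-M2 were the high lines, YEJH-M5 and YEJH-M3 lay within the fat-pad range, and the difference of 1.61 ± 0.53 had an adjusted p of 0.412. Lama3 was high in YEJH-M2 and YEJH-M4, at 596 and 535 CPM against 247 to 316 in the fat-pad lines, and Lamb3 was highest in the same lines, at 337 and 326 CPM. Fn1, Lama5, Lamb3, Lamc1, Col4a1, Col4a2 and Hspg2 differed by between -0.16 (Col4a2) and 0.24 (Fn1) on the log2 scale, with adjusted p of 0.784 or more.

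The origin of the lines went with wider differences. In the 3 YEJG-derived lines against the 10 YEJH-derived lines, with site as a term, 34 members were tested, 11 were higher and 15 lower, and 8 did not pass (plot of differences by origin). Across the 15815 genes tested 40.8% passed, 19.2% higher and 21.6% lower, which is the background for the members' 26 of 34. The median log2 difference (YEJG-derived over YEJH-derived) was -0.08 over the members and 0.00 over all genes. The lower genes were all 3 tested laminin alpha chains, all 3 beta chains, 4 of 6 type IV collagen genes, Agrn, both anchoring collagens, Tnc and Col6a3, and the higher genes were 4 of 6 fibrillar collagen genes, Col6a1, Col6a2, Sparc, Thbs2, Hspg2, Lamc1 and Col4a5. In group A of the libraries alone 20 of 28 tested members passed, where 40.1% of all genes did, and in group B alone 23 of 30 did, against 38.8% of all genes. Among lung lines alone 23 of 34 members passed, against 34.5% of all genes.

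**Figure D2:**
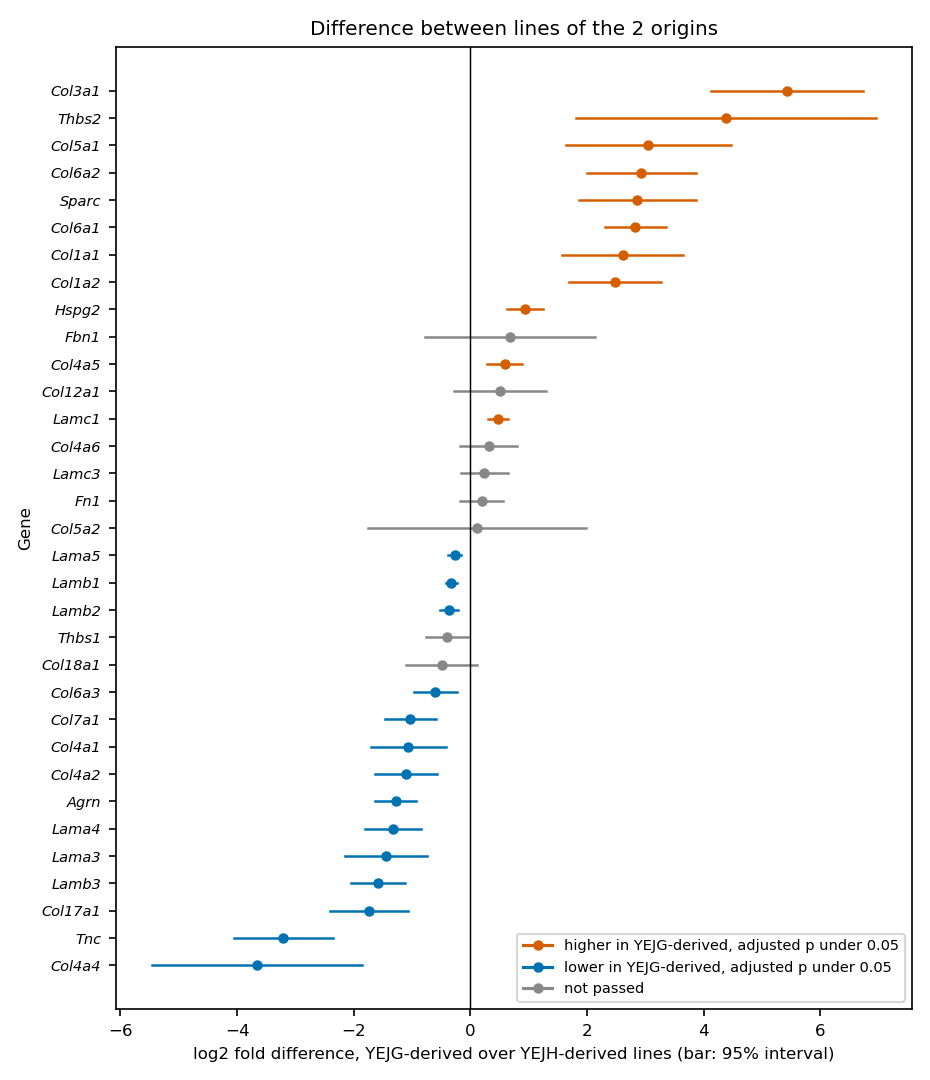
Difference (log2) of 33 members in lines of YEJG origin relative to those of YEJH origin, with site as a term, with points at the estimate and bars for the 95% interval; orange is higher and blue lower at an adjusted p under 0.05, grey did not pass, and Col4a3 (0 reads in YEJG-derived lines) is left out. Col1a1, Col1a2, Col3a1, Col5a1, Col6a1, Col6a2 and Sparc lie to the right, and Tnc, Lamb3, Lama3 and Agrn to the left.

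The 3 YEJG-derived lines go back to 1 parental line, so that origin, animal and culture history cannot be told apart. The comparison covers derived lines only. In parental YEJH and YEJG, Hspg2 was at 191 and 166 CPM, Lamc1 at 228 and 192 and Col4a1 at 773 and 824, opposite in direction to the derived lines. Also opposite were Col4a5 (64.6 and 48.6), Col7a1 (68.4 and 87.6), Col17a1 (3.75 and 7.71) and Col6a1 (1.06 and 0.853). So were Col1a1, Col1a2, Col6a2, Thbs2 and Col4a3, at most 0.284 CPM in either parental line. Tnc at 2242 and 1517 CPM, Agrn at 401 and 332 and Sparc at 2.47 and 6.99 ran the same way. So did Col5a1, Lama4, Lama5, Lamb1, Lamb2, Lamb3, Col4a2, Col4a4 and Col6a3. Lama3 was nearly level between them, and Col3a1 was at 0 in both. The difference between the parental lines was not tested.

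Lama3 and Lamb3 encode chains of laminin-332, the trimer that anchors epithelial cells through hemidesmosomes. Lama3 was at 247, 289.6 and 596 CPM (lowest, median and highest) in YEJH-derived lines, and at 172 in YEJG-FP, 70.2 in YEJG-M1 and 133 in YEJG-M2. All YEJG-derived lines lay below all YEJH-derived lines, with the lung lines lowest, and the log2 difference was -1.45 ± 0.33 (adjusted p = 0.00338). Lamb3 (chr1:192890007-193027705, GRCm39, plus strand) was at 219, 273 and 337 CPM (lowest, median and highest) in YEJH-derived lines and 147, 57.8 and 74.6 in YEJG-FP, YEJG-M1 and YEJG-M2. It too separated fully, by -1.59 ± 0.21 (adjusted p = 0.000115). The ratio of Lama3 to Lamb3 CPM stayed at 0.890 to 1.79 over the 15 lines. In the parental lines Lama3 was at 280.2 CPM in YEJH and 281 in YEJG, and Lamb3 at 272 and 235.

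The chains of the other laminins moved less. Lama5 and Lamb1, which with Lamc1 form laminin-511, were lower, with log2 differences of -0.27 ± 0.05 and -0.33 ± 0.04, and Lamb2 was lower with -0.36 ± 0.07. Lamb1 was at 615 to 699 CPM in YEJH-derived lines and at 531, 515 and 546 in YEJG-FP, YEJG-M1 and YEJG-M2, so that its groups did not overlap. Lamc1, the gamma chain shared by most laminins, was instead higher, at 192, 205 and 222 CPM (lowest, median and highest) in YEJH-derived lines and 231, 321 and 313 in YEJG-FP, YEJG-M1 and YEJG-M2. All were above the YEJH-derived lines and the lung lines were highest, and the difference was 0.47 ± 0.08 (adjusted p = 0.000590). Lama4 was lower (-1.33 ± 0.22) from low levels throughout, and Lamc3, a gamma chain of low level here, had an interval of -0.17 to 0.63.

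Among type IV collagen genes, the pair Col4a1 and Col4a2 lie head to head (chr8:11248423-11362826, minus strand, and chr8:11362471-11499287, plus strand, GRCm39), and their annotated ends overlap there, so that reads of an unstranded library in the overlap cannot be assigned to one of them. Col4a1 was at 393, 479 and 629 CPM (lowest, median and highest) in YEJH-derived lines and at 93.1, 352 and 351 in YEJG-FP, YEJG-M1 and YEJG-M2. YEJG-FP was the lowest by a wide margin. Col4a1 differed by -1.06 ± 0.30 (adjusted p = 0.0116) and Col4a2 by -1.10 ± 0.25 (adjusted p = 0.00342). Without YEJG-FP the differences were -0.54 and -0.64, with adjusted p of 0.0159 and 0.00247, and among lung lines alone the adjusted p of Col4a1 was 0.0610. The ratio of Col4a1 to Col4a2 CPM stayed at 1.15 to 1.76 over the 15 lines. Col4a5, an X-linked chain, was at 45.6, 59.3 and 75.6 CPM in YEJH-derived lines and 80.6, 119 and 74.7 in YEJG-FP, YEJG-M1 and YEJG-M2, and YEJG-M2 overlapped with the highest YEJH-derived line. It was higher by 0.59 ± 0.14 (adjusted p = 0.00476). Col4a6, its neighbour on the chromosome, did not pass, with an interval of -0.17 to 0.79. Col4a3 had 89 reads in the YEJH-derived lines and 0 in the 9 libraries of YEJG-derived lines, at least 8.64-fold lower against a floor of 3 counts over the group. Col4a4 had 136 and 3 reads, a ratio of 13.2 with an exact 95% counting interval of 4.42 to 64.8, which covers counting error only.

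The proteoglycans went in opposite directions. Hspg2 was at 130.3, 177 and 232 CPM (lowest, median and highest) in YEJH-derived lines and 280.4, 339 and 419 in YEJG-FP, YEJG-M1 and YEJG-M2, every one above the highest YEJH-derived line. It was higher by 0.93 ± 0.14 (adjusted p = 0.000267). Agrn was at 299, 393 and 499 CPM (lowest, median and highest) in YEJH-derived lines and 227, 113 and 148 in the YEJG-derived lines, every one below, and was lower (-1.28 ± 0.17, adjusted p = 8.14e-05). Col18a1, the source of endostatin, did not pass (log2 difference -0.49 ± 0.28, adjusted p = 0.181). Of the anchoring collagens, Col7a1, which forms the anchoring fibrils, was at 74.6, 111 and 131 CPM in YEJH-derived lines and 40.2, 45.5 and 78.2 in YEJG-FP, YEJG-M1 and YEJG-M2, and was lower (-1.03 ± 0.20, adjusted p = 0.00151) although YEJG-M2 overlapped with YEJH-M5. Col17a1, a hemidesmosome component, was at 2.04, 3.88 and 5.42 CPM and 0.613, 1.35 and 1.5 in the same lines, without overlap, and was lower (-1.74 ± 0.31, adjusted p = 0.000753).

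Tnc had the most negative difference of the tested members above 10 CPM. Tnc (chr4:63878014-63965443, GRCm39, minus strand) was at 1398, 2547 and 3190.1 CPM (lowest, median and highest) in YEJH-derived lines, 591 in YEJG-FP, 135 in YEJG-M1 and 141 in YEJG-M2. The groups did not overlap, YEJG-FP lay between, and Tnc was 9.25-fold lower (log2 difference -3.21 ± 0.39, adjusted p = 6.01e-05). Fn1 did not pass (0.19 ± 0.17, interval -0.18 to 0.56), and without YEJH-M3 it was higher by 0.34 (adjusted p = 0.0331). Thbs1, an activator of TGF-beta and the member with most reads, was at 2269, 3645 and 4028 CPM in YEJH-derived lines and 3892, 1949 and 2213 in YEJG-FP, YEJG-M1 and YEJG-M2. Both YEJG lung lines lay below the YEJH-derived lines and YEJG-FP among them, and the difference did not pass (-0.40 ± 0.17, adjusted p = 0.0744). Sparc (chr11:55285317-55314067, GRCm39, minus strand) was at 11.5, 21 and 124 CPM (lowest, median and highest) in YEJH-derived lines and 102, 540.2 and 367 in YEJG-FP, YEJG-M1 and YEJG-M2. The lung lines of YEJG were the highest of all lines, while YEJG-FP lay below YEJH-M2, and the difference was 2.86 ± 0.46 (adjusted p = 0.000388). Thbs2, another thrombospondin, had a log2 difference of 4.38 that rested on YEJG-M1 alone, where it was at 16.2 CPM against at most 0.397 in any other line. Without YEJG-M1 the difference was -1.22 and no longer passed (adjusted p = 0.318).

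**Figure D3:**
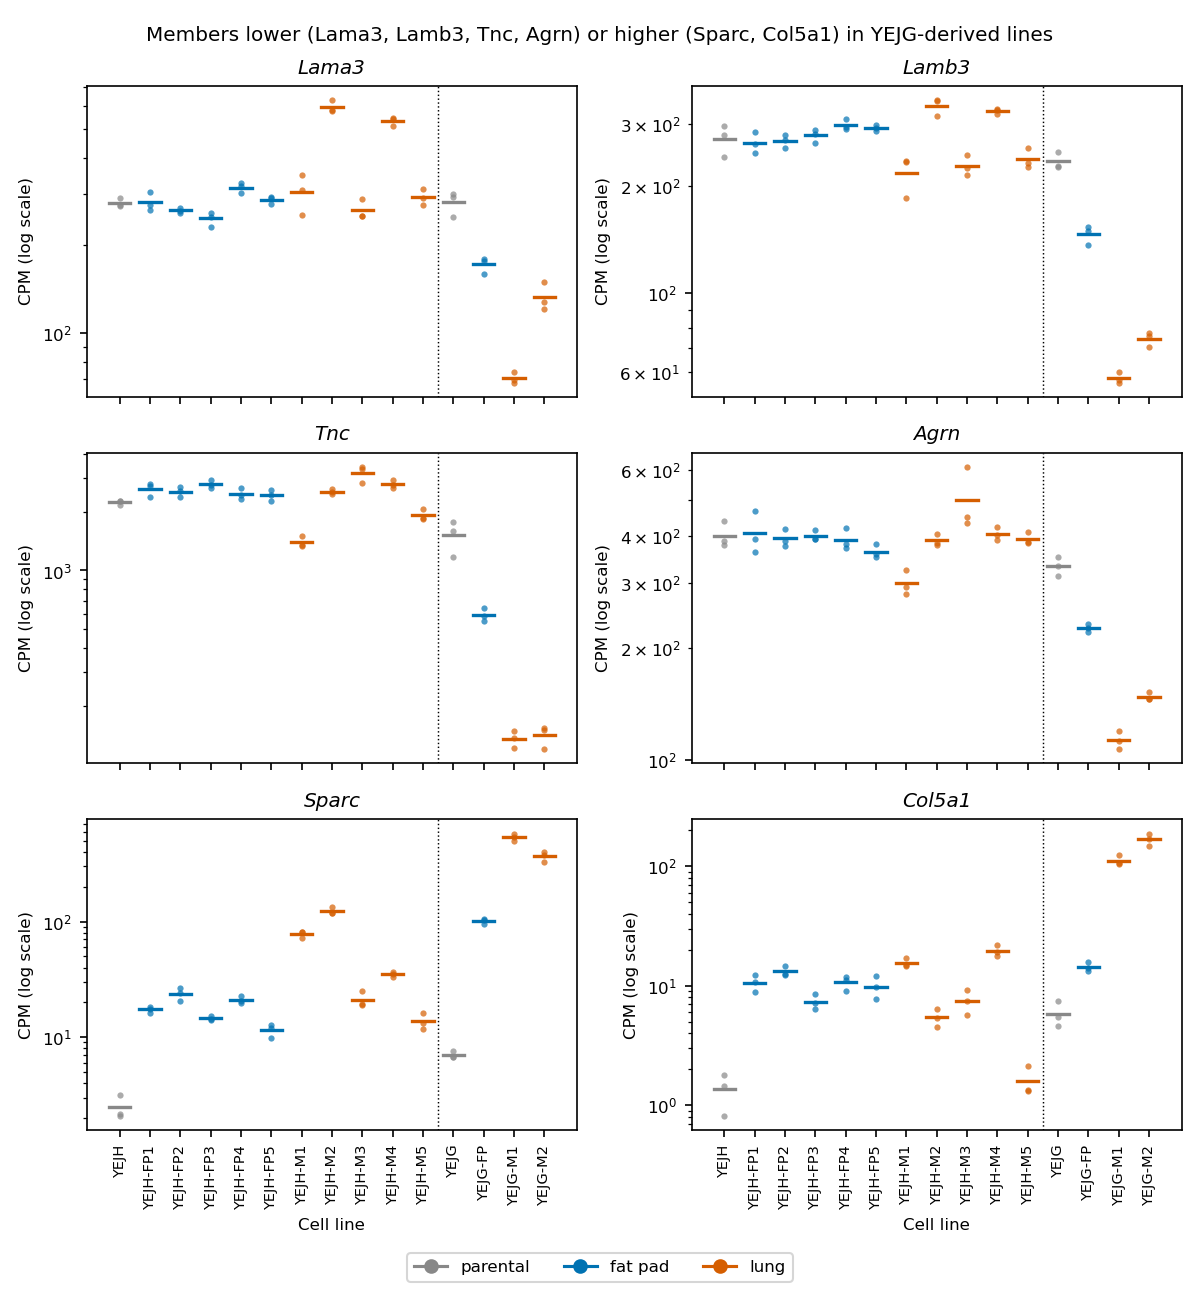
Levels of Lama3, Lamb3, Tnc, Agrn, Sparc and Col5a1 in CPM on log axes by line, with points for the 3 libraries, bars for their mean, and grey, blue and orange for parental, fat-pad and lung lines; the dotted line separates YEJH lines from YEJG lines. Lama3, Lamb3, Tnc and Agrn step down from YEJG through YEJG-FP to YEJG-M1 and YEJG-M2, where Tnc reads 135 and 141 CPM, while Sparc and Col5a1 are highest in these lung lines.

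Col5a1, a fibril-nucleating collagen, was among the widest-ranging members. Col5a1 (chr2:27776397-27929526, GRCm39, plus strand) was at 1.6, 10.2 and 19.8 CPM (lowest, median and highest) in YEJH-derived lines and 14.4, 112 and 169 in YEJG-FP, YEJG-M1 and YEJG-M2. YEJG-FP lay within the YEJH-derived range and the lung lines of YEJG far above it. The difference was 3.05 ± 0.65 (adjusted p = 0.00245). Between the single line YEJG-FP and the 5 YEJH fat-pad lines the log2 difference of Col5a1 was 0.45. The type I and type III collagen genes, the bulk collagens of stroma, were higher from very low levels. Col1a1 reached 0.396, 3.97 and 1.12 CPM in YEJG-FP, YEJG-M1 and YEJG-M2 against at most 0.405 in YEJH-derived lines, Col1a2 reached 1.77, 4.94 and 3.12 against at most 1.11, and Col3a1 0.537, 5.91 and 2.02 against at most 0.259. The 3 genes were higher by 2.61 ± 0.48, 2.47 ± 0.36 and 5.42 ± 0.60. Of the type VI collagen genes, Col6a1 was at 1.61, 3.19 and 5.08 CPM (lowest, median and highest) in YEJH-derived lines and 18.7, 24.5 and 11.3 in the YEJG-derived lines, higher by 2.82 ± 0.24 (adjusted p = 5.72e-06). Col6a2 was higher by 2.93 ± 0.43, with 1.21, 4.95 and 2.27 CPM in the YEJG-derived lines against at most 0.646. Col6a3, the long chain of the same trimer, was lower (-0.61 ± 0.17, adjusted p = 0.0124). Col12a1, a fibril-associated collagen, was at 51.1, 122 and 214 CPM in YEJH-derived lines and 139, 129.8 and 286 in the YEJG-derived lines and did not pass, nor did Col5a2 or Fbn1 (fibrillin-1), with intervals of -0.29 to 1.29, -1.75 to 1.98 and -0.78 to 2.13. Col3a1, Thbs2, Col5a2 and Col4a3 passed the filter on low counts here but not between sites, so that their place among the tested members depends on the groups.

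Some markers of cell type moved with these differences. All 7 luminal epithelial markers were lower in YEJG-derived lines, and their sum was 5735 to 7653 CPM in YEJH-derived lines, 4310 in YEJG-FP and 2870 to 3168 in YEJG-M1 and YEJG-M2. Of 7 fibroblast markers, 2 were higher, Pdgfra and Pdgfrb, and the sum of the list was 62.6 to 82.2 CPM in YEJG lung lines, 9.25 in YEJG-FP and 2.21 to 4.73 in YEJH-derived lines. The other 5 (Thy1, Dcn, Lum, Dpt and Col14a1), among them defining markers of fibroblasts, were under 1 CPM in every line, and 3 of these were at 0. Basal markers, mostly Krt14, summed to 137 to 149.7 CPM in YEJG lung lines, 496 in YEJG-FP and 209 to 488 in YEJH-derived lines. Of 2 basal markers tested by origin, 0 passed, and the sum in YEJG-FP lay above the YEJH-derived range. Acta2, another basal marker, was instead highest in YEJG-M1 and YEJG-M2, at 1.41 and 6.46 CPM against at most 0.175 in any other line. The part of these lists in the members' differences was not tested, and fewer cells of a type and less RNA per cell cannot be told apart in such samples.

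Since YEJG-FP often stood apart from YEJG-M1 and YEJG-M2, the difference between lung and fat-pad lines was compared between origins. A positive value of this term means that lung minus fat pad was larger in YEJG. Of 34 members, 5 were higher and 3 lower, against 13.3% of 17042 genes, 6.74% higher and 6.61% lower. The term rests on 1 fat-pad line of YEJG and could not be fitted without it. The median over members was 0.53 and over all genes -0.02. In group A alone 7 of 33 members passed, against 12% of all genes, and in group B alone 7 of 33, against 9.99%.

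Of the 5 positive members, 3 were collagens of the basement membrane whose lowest line was YEJG-FP. Col18a1 was at 529, 535, 559, 567 and 489.6 CPM in YEJH fat-pad lines and 591, 528, 504, 468 and 492 in YEJH lung lines, against 146 in YEJG-FP and 598 and 466.2 in YEJG-M1 and YEJG-M2. The 2 YEJG lung lines thus lay just outside the range of YEJH-derived lines and YEJG-FP far below it. The term was 1.94 ± 0.17 (adjusted p = 7.46e-05). Col4a1 had levels of 489, 496, 468, 522 and 457 CPM in the YEJH fat-pad lines and 448, 455, 629, 393 and 628 in the YEJH lung lines, and Col4a2 had 376, 343, 375, 363 and 374 in the former and 272, 291, 413, 298 and 382 in the latter. Against these, YEJG-FP stood at 93.1 CPM for Col4a1 and 80.6 for Col4a2, the lowest of the 15 lines for both. Their terms were 1.86 ± 0.27 (adjusted p = 0.00118) and 1.55 ± 0.23 (adjusted p = 0.00134). Lamc1 (0.51 ± 0.09, adjusted p = 0.00299) and Col6a2 (2.68 ± 0.58, adjusted p = 0.0101) were the others, and Col6a2 had the largest positive term.

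**Figure D4:**
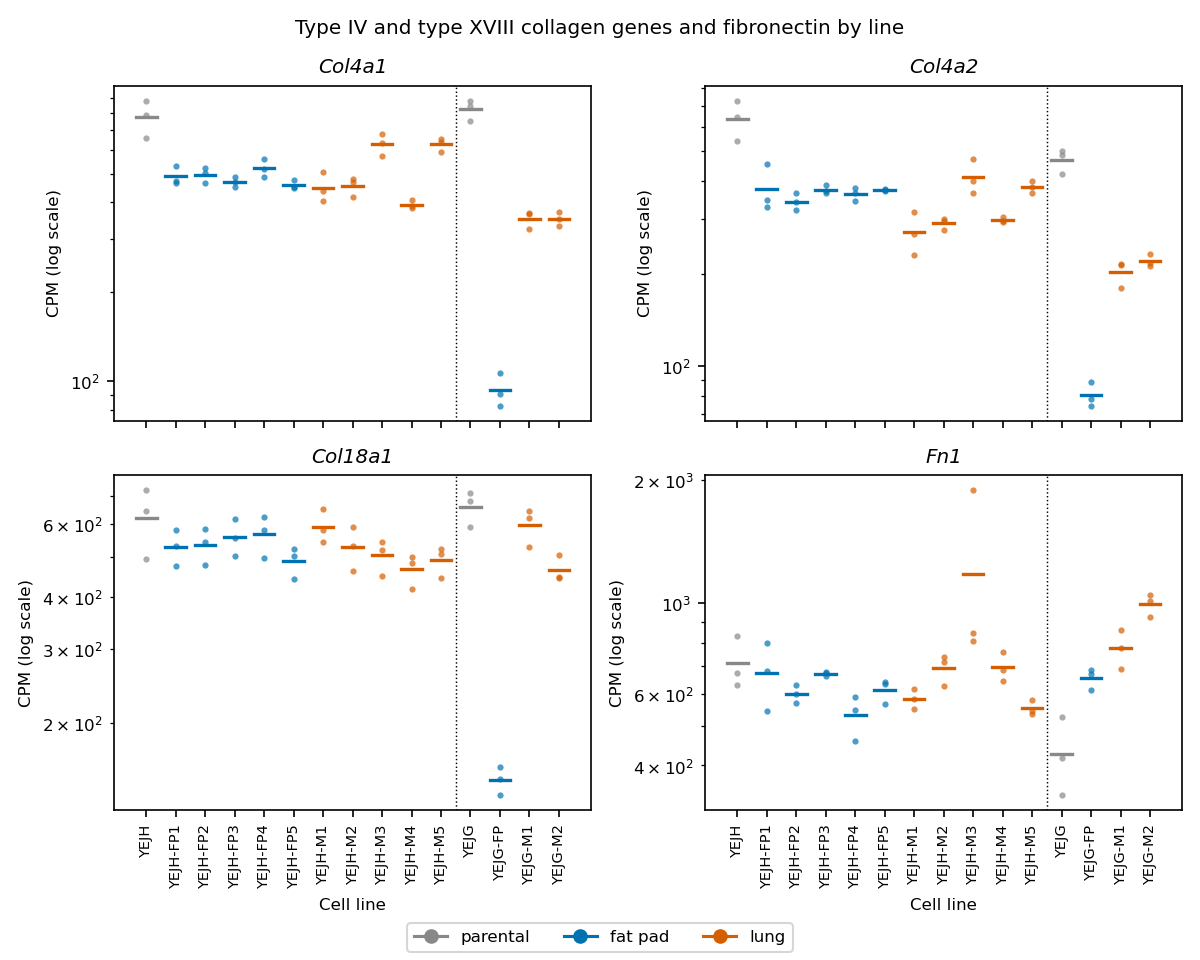
Levels of Col4a1, Col4a2, Col18a1 and Fn1 in CPM on log axes by line, with points for the 3 libraries, bars for their mean, and grey, blue and orange for parental, fat-pad and lung lines. YEJG-FP is the lowest line for the first 3 genes, and YEJH-M3 is the highest for Fn1 at 1179.7 CPM.

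The negative group held Tnc (-1.96 ± 0.36, adjusted p = 0.00422), Lamb3 (-1.08 ± 0.27, adjusted p = 0.0207) and Agrn (-0.79 ± 0.24, adjusted p = 0.0434), which were lower in YEJG-M1 and YEJG-M2 than in YEJG-FP while the ranges of YEJH lung and YEJH fat-pad lines overlapped. For Lamb3 the adjusted p was 0.0874 without YEJG-M1 and 0.0546 in group A alone, and for Col6a2 it was 0.0741 in group A alone. Lama5, Hspg2 and Fn1 had terms of -0.19 ± 0.10, 0.41 ± 0.29 and 0.19 ± 0.37 and did not pass. Over the same lines, 4 of the 7 luminal markers and 1 of 4 tested basal markers (Krt14) had negative terms that passed. The 2 tested fibroblast markers, Pdgfra and Pdgfrb, had positive ones, and the part of the markers was not tested.

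The comparisons share lines, so their values stand side by side and are not separate evidence. Last, the 13 derived lines were set against the 2 parental lines, with origin as a term. Of 34 members, 5 were higher in derived lines (Sparc, Col1a2, Col3a1, Col5a1 and Col6a1) and 3 lower (Lamb1, Lamb2 and Col4a2), against 7.77% of 16361 genes, 3.55% higher and 4.23% lower. The medians were 0.12 over members and 0.01 over all genes. In group A alone 5 of 31 members passed, against 6.76% of all genes, and in group B alone 5 of 32, against 4.56%. Without parental YEJG 0 of 34 members passed in edgeR and without parental YEJH 15 of 34 did, against 0.826% and 13.4% of all genes, and in these fits the 1 parental line left is assumed to vary like the other lines.

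Sparc was at 2.47 CPM in parental YEJH and 6.99 in parental YEJG, below each of the 13 derived lines, of which the lowest was at 11.5 and the highest at 540.2. The log2 difference was 4.71 ± 1.24 (adjusted p = 0.0334), and the adjusted p was 0.0532 without parental YEJH and 0.410 without parental YEJG. Col6a1 was also lowest in the parental lines, at 1.06 and 0.853 CPM against 1.61 to 24.5, with a difference of 2.58 ± 0.65 (adjusted p = 0.0285). Col5a1 had 1.36 and 5.83 CPM in the parental lines and overlapped with YEJH-M5 at 1.6 and YEJH-M2 at 5.45 (3.50 ± 0.99, adjusted p = 0.0440). Col3a1 had 0 reads in the 6 parental libraries and 381 in derived lines, at least 18.2-fold higher against a floor of 3 counts over the group. Col1a2 had 10 reads against 668, a ratio of 9.59 (exact 95% counting interval 5.18 to 20.1). The bound and the ratio pool both origins. Of the Col3a1 reads 361 were in YEJG-derived and 20 in YEJH-derived lines, and of the Col1a2 reads 424 and 244. Within YEJH, Col1a2 was at 0.210 CPM in the parental line and 0.302 to 1.11 in derived lines. The highest levels of both genes were those of YEJG-M1 and YEJG-M2 given above.

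Col4a2 was highest in the parental lines, at 636 CPM in YEJH and 469 in YEJG, against 80.6 to 413 in derived lines. It was lower in derived lines (-1.16 ± 0.25, adjusted p = 0.0136), without overlap. Col4a1 ran alike, at 773 and 824 CPM in the parental lines and at most 629 in derived lines, with a difference of -1.13 ± 0.33 and an adjusted p of 0.0505. Lamb1 and Lamb2 were lower, with log2 differences of -0.16 ± 0.05 and -0.32 ± 0.08 and adjusted p of 0.0490 and 0.0250. Fn1, Lama5, Lamb3, Lamc1 and Hspg2 did not pass, at 0.33 ± 0.25, -0.18 ± 0.06, -0.70 ± 0.30, 0.15 ± 0.13 and 0.37 ± 0.22. Of the markers, 1 of 7 luminal (Epcam) and 1 of 4 tested basal markers (Krt14) were lower in derived lines. Of 2 tested fibroblast markers, 1 (Pdgfrb) was higher. The median log2 difference of the 4 basal markers was 2.67, opposite in sign to that of Krt14. The part of the markers was not tested.

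The remaining genes of the pathway were counted in 4 lists, to be read by origin against the 40.8% of all genes that passed (19.2% higher and 21.6% lower). Of 16 other basement membrane genes, 10 were tested by origin, 1 was higher and 5 were lower in YEJG-derived lines. Fbln1 (fibulin-1) was higher by 5.17 ± 0.96, and Npnt (nephronectin) was lower (-2.85 ± 0.46). Fbln1 was at 18.2 and 5.89 CPM in YEJG-M1 and YEJG-M2, while YEJG-FP at 0.148 lay within the YEJH-derived range of 0 to 0.375. Of 24 other interstitial matrix genes, 14 were tested, 6 were higher and 2 lower, with Tnxb, Col5a3 and Thbs3 at 4.36 ± 0.53, 3.71 ± 0.69 and 2.23 ± 0.42. Col5a3 in YEJG-FP, at 0.317 CPM, also lay within its YEJH-derived range of 0 to 0.423. Of 21 genes of collagen synthesis and secretion, 18 were tested, 9 were higher and 2 lower. Pcolce, an enhancer of procollagen C-proteinase, was higher by 3.37 ± 0.32, and the lysyl hydroxylase gene Plod2 and the prolyl hydroxylase family gene P3h3 by 1.68 ± 0.27 and 1.6 ± 0.53. P3h3 was raised in YEJG-M1 alone, at 8.84 CPM. YEJG-FP (0.840) and YEJG-M2 (1.16) lay within the YEJH-derived range for P3h3 of 0.595 to 1.40 CPM. Of 7 non-integrin matrix receptors, 0 were higher and 4 lower in edgeR, among them the hyaluronan receptor Cd44 (-1.35 ± 0.17) and the syndecan Sdc1 (-1.21 ± 0.10). The median log2 differences of these lists were -0.42, 0.68, 0.46 and -0.58, against 0.00 over all genes. Between lung and fat-pad lines no gene of the 4 lists passed in edgeR, over all lines or within YEJH. At an unadjusted p under 0.05 there were 2 of 9, 4 of 13, 3 of 18 and 1 of 7 over all lines, in the order above. Over all genes it was 5.21%. Within YEJH there were 2 of 8, 4 of 12, 3 of 18 and 1 of 7, against 7.55% of all genes. For the origin-by-site term 2 of 12, 5 of 15, 6 of 19 and 3 of 7 tested genes passed, against 13.3% of all genes, and between derived and parental lines 1 of 10, 2 of 15, 1 of 18 and 2 of 7, against 7.77%.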

How the data were processed

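RNA was prepared with Trizol from cells at 80% confluence, and libraries came from a TruSeq RNA kit (version v2), which does not mark strand, and sequenced on a NextSeq500. The authors deposited 1 table of raw read counts per gene for 45 libraries. The submitters' processing notes name FastQC, HISAT2, SAMtools 1.2, HTSeq and the build GRCh38, although the identifiers are those of mouse genes. The 5 summary rows of unassigned reads, 31.64% to 43.3% of a library, were left out. All value columns matched a sample. Names were matched through GENCODE vM39 for 50764 of 54838 identifiers (92.6%), and exon lengths are from the same annotation.

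Counts of the 3 technical repeats were summed per line, filtered with filterByExpr, scaled by TMM and tested with edgeR 4.0.16 (R 4.3.3) in its quasi-likelihood framework, with Benjamini-Hochberg adjustment over all tested genes at 0.05, two-sided. Origin and site were terms as stated. Alternatives were DESeq2 1.42.0, limma 3.58.1 on separate libraries, other scaling, no filter, each of the library groups A and B set by the prefix of the library name, each line left out and a replicate block. Fits of origin within 1 site, and of derived against parental lines within 1 origin, were added after seeing the data. The scripts were tested on simulated data. Same-numbered fat-pad and lung lines of YEJH had a mean correlation of deviations of -0.0557 over 5 pairs. Members and lists were chosen with earlier results of these data known. Members named by rule were those past the threshold with a log2 difference of at least 1 in size, and Fn1, Lama5, Lamb3, Lamc1, Col4a1, Col4a2 and Hspg2 in every comparison. Others are named to account for them and were chosen after their values were seen. Exact intervals of read ratios and floors cover counting error only, while intervals of log2 differences come from the fits and include the spread between lines. A gene of the other lists that the naming rule picked is not reported here.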

Additional observations from a re-analysis of the deposited data

Results flagged for a closer look

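Among the 20 members above 10 CPM, 80 groups of lines were examined for a line far from the others, and 12 were found. About 4.0 would be found by chance in independent groups, but these groups share lines, so the 2 numbers do not make a test. In 10 of the 12 the line was YEJG-FP among the 6 fat-pad lines, the others being all of YEJH origin. YEJG-FP was low for Lamb1 (530.6 CPM), Lamb3 (146.6), Col4a1 (93.06), Col4a2 (80.59), Agrn (226.5), Col18a1 (145.7), Col7a1 (40.22) and Tnc (591.2), and high for Col4a5 (80.64) and Sparc (101.6). YEJG-M1 was high for Col4a5 among the 7 lung lines (118.9 CPM), and YEJH-M3, the line labelled as lung metastases, was high for Fn1 among the 5 YEJH lung lines (1180 CPM).

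The difference between lung and fat-pad lines itself differed between the origins for 8 members in edgeR's interaction term. On the log2 scale the term was 1.94 for Col18a1, 1.86 for Col4a1, 1.55 for Col4a2, 0.51 for Lamc1, 2.68 for Col6a2, -1.96 for Tnc, -1.08 for Lamb3 and -0.79 for Agrn. All 8 rest on the same single fat-pad line of YEJG, and whether that line or the origin sets them cannot be told apart.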

How the results depend on the processing

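Between lung and fat-pad lines, the count of genes passing was 0. It became 22 in DESeq2, 77 in limma, 1 in group A and 3 with origin as a covariate. With a line left out it was 0 to 1 (1 without YEJG-M1). Members passing became 1, 2 and 1 in DESeq2, limma and with origin, against 0.146%, 0.584% and 0.019% of all genes. Col4a1 moved between -0.072 and 0.21 with a line left out, and Col4a2 turned to 0.020 in limma and 0.12 with origin. Within YEJH, 7 genes became 153 in DESeq2, 318 in limma and 2 (without YEJH-M2) to 110 (without YEJH-M5); members became 2, 3 and 0 to 2, and 0 in group A. Small differences turned sign for Lama5 (0.0077 in group B; -0.036 to 0.011 with a line left out), Lamc1 (0.0037 in group B), Hspg2 (-0.056 in group A; -0.053 to 0.13), Lamb3 (-0.16 to 0.0062) and Col4a1 (-0.027 to 0.14). With the number in the YEJH line names as a replicate block 0 genes and 0 members passed, and 0 lines correlated best with their own number. With 5 pairs these values cannot show whether same-numbered lines came from the same animal. By origin, Thbs2 was -2.43 in fat-pad lines alone and -1.22 to 5.51 with a line left out. For the origin-by-site term, 2275 genes became 3518 in limma, members 12 in DESeq2, 13 in limma and 6 to 11 with a line left out, and Fn1 ran from -0.020 to 0.39.

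Between derived and parental lines, 1272 genes became 2027 in DESeq2, 685 in group B, 2499 in limma, 566 in YEJH alone, 0 in YEJG alone and 141 (without parental YEJG) to 2281 (without parental YEJH); the 8 members became 4 with no filter, 5 in each group, 16 in limma, 1 in YEJH alone, 0 in YEJG alone and 0 to 15. In YEJH alone Fn1 was -0.064, Lamb3 0.032, Lamc1 -0.15 and Hspg2 -0.075, and with a line left out they ran from -0.060 to 0.92, -1.36 to 0.036, -0.15 to 0.58 and -0.071 to 1.05. Fits with 1 line in an arm assume that it varies like the others. The causes were not tested. Over all alternatives, 153 of the counts stayed within 1.5 times and 53 did not. Of the single-gene values 1077 kept direction and call, 69 lost the call, 12 gained it and 27 turned sign. Depth limits members under 1 CPM most.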
